A study of Mus musculus with 19 samples.

Results

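The genes described here are 49 interferon-stimulated genes, the classical targets of type I and type II interferon, followed in mouse regulatory T cells (Tregs) in which the NF-kB subunits p65 (Rela) or c-Rel (Rel) were deleted or which were given pentoxifylline. Members were the rows whose gene symbol equals one of the 49 listed names in either of the 2 deposited tables, and a member was tested in a table where it reached 1 RPKM (read counts scaled to gene length and to the mapped reads of the library) in at least 2 libraries. The stimulated table held 47 of the 49 members among 14290 genes with library values and 42 of these were tested among 9945. The sorted table held all 49 among 14818 genes, and all 49 were tested among 10656. Ifit3b and Ddx60 have no row in the stimulated table, and Rsad2, Oas2, Oasl1, Ifi44 and Mx1 stayed below the level for testing there. At the edge of that rule, Cmpk2 was just inside with 1.07 RPKM in 1 water library and 1.03 in 1 c-Rel-deficient library, and Oasl1 was just outside with a highest value of 0.688.

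The study covers 19 RNA-seq libraries of YFP-positive Tregs from C57Bl/6 mice carrying the Foxp3-CRE-YFP allele. Cre and YFP are driven by Foxp3, the lineage factor of Tregs, so all groups carry this allele and deletion is directed to cells that express Foxp3. The wild-type (WT) controls carry Foxp3-CRE-YFP alone, p65KO cells carry it with p65 F/F, and c-Rel-deficient cells carry it with c-Rel F/F. In the stimulated set, cells were cultured for 16 h on plates coated with 5 ug/mL anti-CD3, with 1 ug/mL soluble anti-CD28 and 10 ng/mL IL-2. Its 3 groups of 2 libraries are WT with water, WT with 500 ug/mL pentoxifylline dissolved in water, and c-Rel-deficient. Pentoxifylline is a methylxanthine drug that inhibits cyclic nucleotide phosphodiesterases. The sorted set holds cells taken from spleen and lymph nodes and lysed without culture or treatment. They are rTregs (CD44lo, resting) and aTregs (CD44hi, activated) of WT, p65KO and cRelKO mice, with 3 libraries of WT aTregs and 2 of every other group. Ages are not given in the labels used here, and the labels do not say that libraries of a group came from separate animals, so p-values measure the spread between libraries, which may be technical.

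Several libraries stand apart and bear on what follows. Rel read 55.1 and 55.8 RPKM in stimulated WT cells with water, and 2.44 and 25 RPKM in c-Rel-deficient libraries 1 and 2, so the second of these still held Rel RNA. In sorted cells Rel was 1.39 to 5.37 RPKM in the 4 cRelKO libraries against 10.9 to 22 in the 5 WT libraries, and these ranges do not overlap. Rela was 46.8 to 69.4 RPKM in the 4 p65KO libraries against 62.3 to 71.5 in WT, so the gene-level value does not check the p65KO label. Xist, transcribed from the inactive X chromosome, was at most 0.0209 RPKM in 4 stimulated libraries and 18.7 and 22.3 in the second library of WT with water and of WT with pentoxifylline. Both c-Rel-deficient libraries are among the 4, so their comparisons with the WT groups are partly mixed with this difference. Its part was not tested. Foxp3 was 107 to 290 RPKM in stimulated and 28.1 to 102 in sorted libraries.

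Interferons signal through receptors that activate Janus kinases and STAT factors. Type I interferon leads to a complex that holds STAT2 and IRF9 and binds the interferon-stimulated response element (ISRE), while interferon-gamma leads mainly to STAT dimers that bind the gamma-activated site (GAS). The induced genes encode proteins that bind or degrade foreign RNA, modify proteins with ISG15 or ADP-ribose, and attack vacuoles of intracellular microbes. Many are also held at a basal level without infection, and NF-kB binds next to IRF and STAT factors at some of their promoters.

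The promoters of the members differ in these elements, and the stretches that carry them are printed for 11 members chosen among those with a match. RefSeq windows (GRCm38.p6) of 250 bases before to 50 bases after the start were found for 39 members. No window was found for Oas2, Dhx58, Zbp1, Usp18, Gbp4, Ly6a, Parp9, Parp14, Rtp4 and Mx1. On either strand, an ISRE core (GAAA and GAAA with any 2 bases between them) was in 22 of 39 members (56.4%), against 3.99% of 27025 genes. A GAS core (TTCNNNGAA) was in 11 of 39 (28.2%) against 9.55%, and the kB consensus in 8 of 39 (20.5%) against 9.55%. No match of any of these motifs was found in the windows of Cmpk2, Oasl2, Irf7, Irf9, Trim25, Trafd1, Herc6, Samd9l, Sp100, Xaf1, Dtx3l and Ifi44. Matches of different motifs can overlap, as in Bst2. All 7 GBP and IRG members with a window held an ISRE core, and 4 of these 7 also held a GAS core. Each stretch below runs 5′ to 3′ on the gene's strand and ends before the start site, with the motif letters in capitals. An ISRE core on the other strand reads as a pair of TTTC.
Ifit1, chr19:34640773-34640825, plus strand: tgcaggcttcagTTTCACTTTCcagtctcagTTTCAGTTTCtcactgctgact
Ifit3, chr19:34583361-34583428, plus strand: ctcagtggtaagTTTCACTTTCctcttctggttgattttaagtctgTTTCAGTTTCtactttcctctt
Ifit3b, chr19:34607757-34607824, plus strand: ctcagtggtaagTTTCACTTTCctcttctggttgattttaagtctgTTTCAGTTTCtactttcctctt
Oas3, chr5:120777661-120777746, minus strand: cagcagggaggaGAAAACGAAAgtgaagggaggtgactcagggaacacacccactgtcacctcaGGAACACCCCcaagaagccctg
Isg15, chr4:156200863-156200908, minus strand: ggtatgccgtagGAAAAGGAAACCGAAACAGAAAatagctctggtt
Irgm1, chr11:48871423-48871462, minus strand: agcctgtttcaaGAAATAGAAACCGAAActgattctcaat
Igtp, chr11:58199499-58199543, plus strand: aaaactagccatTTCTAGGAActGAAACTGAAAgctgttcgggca
Irgm2, chr11:58214890-58214934, plus strand: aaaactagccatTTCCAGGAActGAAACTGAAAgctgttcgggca
Gbp2, chr3:142620592-142620625, plus strand: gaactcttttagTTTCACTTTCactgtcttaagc
Bst2, chr8:71537575-71537626, minus strand: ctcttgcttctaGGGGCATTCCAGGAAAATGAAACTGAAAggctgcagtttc
Irf1, chr11:53769912-53770013, plus strand: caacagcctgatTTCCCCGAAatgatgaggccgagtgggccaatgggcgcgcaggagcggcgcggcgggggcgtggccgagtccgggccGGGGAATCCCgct

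Ifit3 and Ifit3b, neighbours that encode RNA-binding IFIT proteins, have the same letters over their 68-base stretches, and Igtp and Irgm2 differ at 1 position. Isg15 and Irgm1 carry runs of overlapping ISRE cores, Igtp and Irgm2 a GAS core beside an ISRE core, and Bst2 the kB consensus overlapping a GAS core next to 2 ISRE cores. In Irf1 no ISRE core was found in the window, and a GAS core and the kB consensus were. These matches describe letters, not occupied sites.

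The members also lie close together. By GENCODE M21 (GRCm38), 21 members have another member within 100 kb, with 10 members on chromosome 11, the 4 IFIT members between 34550694 and 34650009 on chromosome 19, and Gbp2, Gbp3, Gbp5 and Gbp7 on chromosome 3. Another protein-coding gene overlaps 9 of them, including Igtp with Irgm2 and Parp9 with Dtx3l. How reads were assigned to strands is not given in the sources used here, so reads of these overlapping genes, and of near-identical copies such as Ifit3 and Ifit3b, may not be separable.

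Members differed widely in level. In the stimulated set the highest mean RPKM values belonged to 2 interferon-inducible GTPases that act on pathogen-containing vacuoles, Igtp (237, range 87.9 to 329 over 6 libraries) and Gbp2 (236, range 58.2 to 361). In the sorted set they belonged to Ly6a, the surface protein Sca-1 (361, range 203 to 534 over 13 libraries), and Igtp (278, range 111 to 415). The lowest sorted level was that of Ifi44, at 1.86 (range 0.382 to 2.95).

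Among the factors that run the pathway, Irf7, the amplifier of type I responses, read 12.4 and 16.5 RPKM in stimulated WT cells with water, 16.6 and 16.7 with pentoxifylline, and 11.1 and 14.6 in c-Rel-deficient cells. In sorted cells Irf7 was 71.6 and 66.4 RPKM in WT rTregs, 106 and 100 in p65KO rTregs and 84.1 and 72.7 in cRelKO rTregs. In aTregs it was 30.9, 46.1 and 63.6 in WT, 63.6 and 60.8 in p65KO and 55.5 and 66.6 in cRelKO. The p65KO rTreg libraries were thus the highest for Irf7, the nearest cRelKO and WT rTreg libraries lay close together at 72.7 and 71.6, and the 3 aTreg groups overlapped.

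Irf9, the DNA-binding partner of STAT2, varied less in sorted cells. It read 62.3 and 60.8 RPKM in WT, 69.5 and 71.3 in p65KO and 62.3 and 52.1 in cRelKO rTregs, and 38.2 to 56.5 RPKM over the 7 aTreg libraries. Stat2 read 16.6 and 31.4 RPKM in WT, 32.9 and 34.6 in p65KO and 34.6 and 19.7 in cRelKO rTregs, so its WT and cRelKO libraries spread widely and overlap. In stimulated cells Irf9 was 50.7 and 54.4 RPKM with water, 27.9 and 47.1 with pentoxifylline and 53.2 and 55.3 without c-Rel, and Stat2 was 18.5 to 28.1 over the 6 libraries. Xaf1 varied widely within groups of the sorted set, from 4.31 to 47.6 RPKM, with 16.0 and 47.6 in the 2 p65KO rTreg libraries.

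Pentoxifylline in stimulated WT cells lowered 5 of the 8 vacuole-directed GTPases, the surface proteins Ly6a and Bst2 and the factor Irf1, and left the ISG15 system without a call. Of the 42 members tested, 14 fell and 2 rose (adjusted p under 0.05 in limma, a linear model fitted over all genes with Benjamini-Hochberg adjustment). The treatment moved much of the transcriptome: 23.9% of all 9945 genes tested fell and 19.6% rose, 43.5% in either direction. The median member difference was -0.58 on the scale of log2(RPKM + 0.5), a 1.5-fold difference, against 0.00 over all genes, and 33 of 42 members lay below 0. Every pentoxifylline library lay below every water library for 26 members and above for 5, against 38.3% and 37.2% of all genes.

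Ly6a read 171 and 183 RPKM with water, 25.5 and 42.4 with pentoxifylline, and 292 and 229 in c-Rel-deficient cells. Irgm1, a GTPase that controls the loading of other IRG proteins, read 80.4 and 111 RPKM with water and 11.3 and 32.2 with pentoxifylline. For both genes the treated libraries lie far below the others, and the fitted changes were -2.41 ± 0.25 (SE, adjusted p = 0.000777) and -2.27 ± 0.42 (adjusted p = 0.00528) on the log2 scale. Rtp4, a chaperone of cell-surface receptors, read 7.90 and 10.7 RPKM with water and 0.952 and 3.32 with pentoxifylline, a log2 change of -2.04 ± 0.46 (adjusted p = 0.0108). Bst2, the tetherin that holds budding virus at the cell surface, read 78.9 and 131 RPKM with water and 26.0 and 32.2 with pentoxifylline (-1.80 ± 0.24, adjusted p = 0.00167). These 2 genes again had treated libraries wholly below the water libraries.

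Gbp2 read 218 and 306 RPKM with water, 58.2 and 131 with pentoxifylline and 342 and 361 without c-Rel (-1.56 ± 0.36, adjusted p = 0.0119). Igtp read 236 and 303 RPKM with water, 87.9 and 149 with pentoxifylline and 315 and 329 without c-Rel (-1.22 ± 0.26, adjusted p = 0.00903). In each of these genes the first pentoxifylline library was lower than the second, as it was for the member median, which stood at -0.48 and -0.07 against the mean of the 6 libraries.

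**Figure D1:**
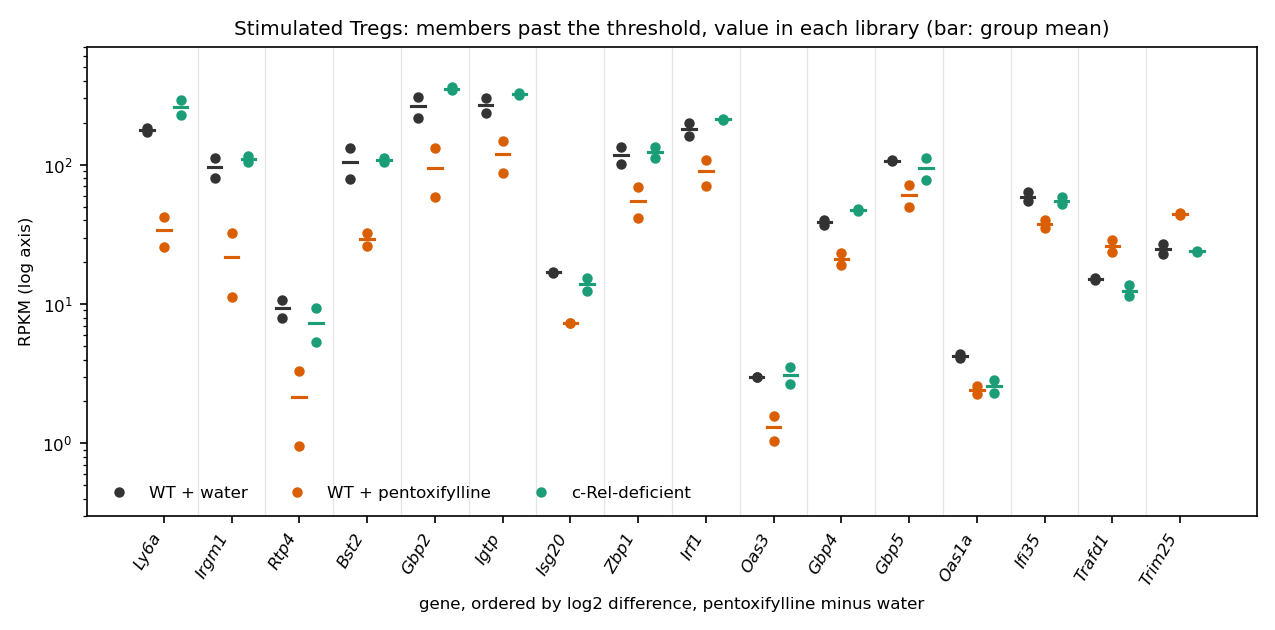
RPKM (log axis) in each of the 6 stimulated libraries for the 16 members called with pentoxifylline, ordered by their log2 difference, with points for libraries and bars for group means. Pentoxifylline libraries lie below water libraries for 14 genes, such as Ly6a at 25.5 and 42.4 against 171 and 183, and above for Trafd1 and Trim25.

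By role, all 8 GBP and IRG members lay below 0 and 5 of them fell, namely Irgm1, Gbp2, Igtp, Gbp4 and Gbp5, while Gbp3, Gbp7 and Irgm2 did not pass. Both surface members fell. Of the OAS enzymes, which make the 2-5A messenger that activates RNase L, Oas1a (-0.69) and Oas3 (-0.96) fell and Oasl2 (-0.26) did not pass. Of the nucleic acid sensors, Zbp1, a sensor of Z-form nucleic acid, fell by 1.12 on the log2 scale and Trim25, the ubiquitin ligase that activates RIG-I, rose by 0.82. Irf1 was the 1 of 4 transcription factors that fell (-1.04, adjusted p = 0.00995), with Irf7 at 0.21, Stat2 at 0.22 and Irf9 at -0.53. The ISG15 system, the modifier Isg15 (-0.16), its protease Usp18 (-0.04) and its ligase Herc6 (0.16), had no call, and neither did the IFIT or PARP members. Trafd1, a negative regulator of innate signalling, rose by 0.77, and Isg20, an exonuclease, and Ifi35 fell.

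**Figure D2:**
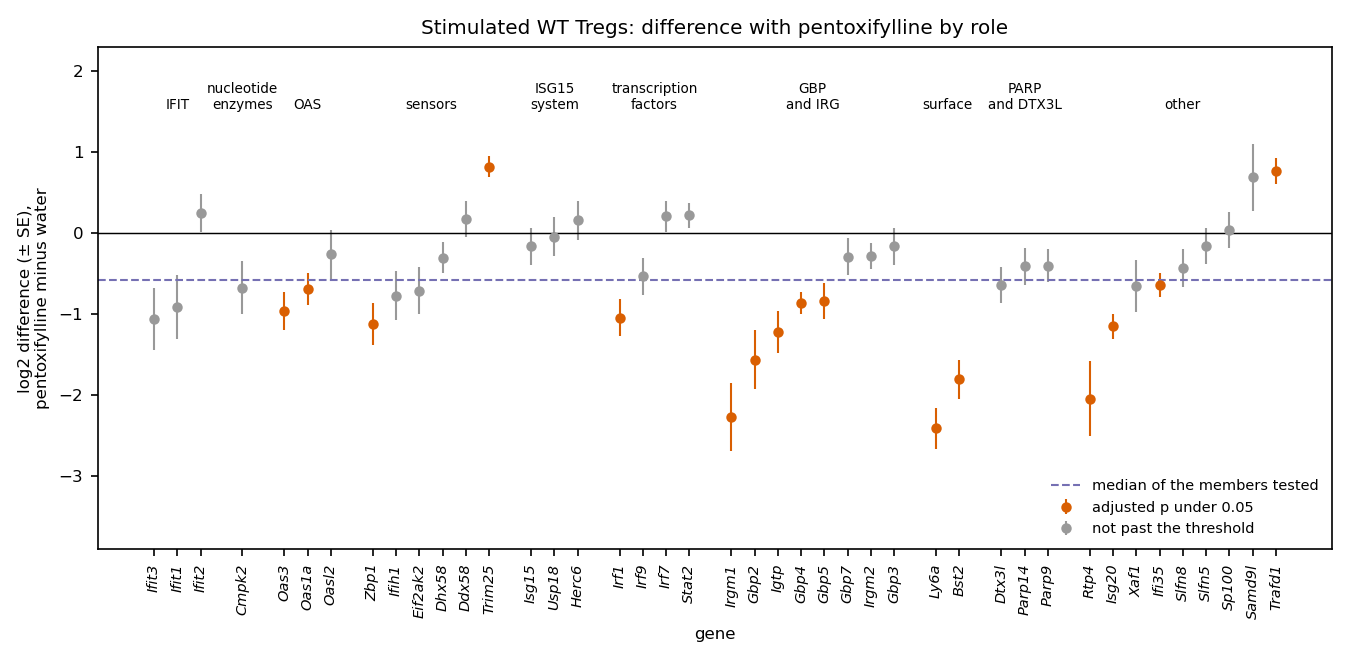
Log2 difference between pentoxifylline and water (± SE) for the 42 members tested, grouped by role, with members past the threshold in orange and the member median of -0.58 as a dashed line. The GBP and IRG genes all lie below 0, and the ISG15 system lies within 0.16 of 0.

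Upstream genes moved in both directions. Ifng, encoding interferon-gamma, read 8.42 and 52.4 RPKM with water, 0.476 and 1.05 with pentoxifylline and 22.4 and 40.0 without c-Rel, a log2 difference of -4.14 ± 0.74 between drug and water (adjusted p = 0.00457). Of the 8 tested receptor and kinase genes, 7 rose, against 19.6% of all genes. Ifngr1, the ligand-binding chain of the interferon-gamma receptor, went from 462 and 381 to 1267 and 1196 RPKM, and Jak2, the kinase bound to that receptor, from 54.5 and 57.5 to 206 and 189. The wider interferon pathway list of 85 genes had 68 tested, of which 14 rose and 24 fell, against 19.6% and 23.9% of all genes. Among its 37 tested interferon-induced genes 19 fell and 3 rose, against 23.9% and 19.6% of all genes. Irf8, in the list of factors, went from 75.9 and 150 to 4.82 and 9.93 RPKM.

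The number of calls depended on single libraries, and so did the share of all genes. Without water library 2, 7 members and 22.6% of all genes were called, and without pentoxifylline library 1, 10 members and 24.9%. Without water library 1 the count was 14 members against 36.2% of all genes, and without pentoxifylline library 2 it was 22 against 36.6%. Each of these fits has a group of 1 library, which is taken to vary like the other groups. Within replicate numbers, 34 of 42 members were lower with pentoxifylline in number 1 and 29 in number 2. After adjustment of its p-values over all genes, the authors' deposited table had 19 members lower and 2 higher among 47, against 12.9% and 9.77% of 14290 genes (22.7% in either direction), and 15 members were called in both analyses. The summed RPKM of the 3 resting markers was 589 to 647 with water and 1209 to 1304 with pentoxifylline. The 6 Treg markers summed to 2225 to 2332 and 1595 to 1957. The 4 of 5 dendritic cell markers in the table summed to 5.31 and 5.37 with water and 9.22 and 10.9 with pentoxifylline. The 6 B cell markers summed to 7.23 to 10.2 and 5.16 to 6.27, with Pax5 at 0 with pentoxifylline. The activated, plasma cell, CD8 T cell, NK, myeloid, plasmacytoid dendritic and erythroid sums overlapped. The part of these in the result was not tested, and in bulk libraries fewer cells of a type and less RNA per cell cannot be told apart.

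Loss of c-Rel in stimulated cells changed no member past the threshold in limma, 0 of 42, as for all 9945 genes (0.00% called). Unadjusted p was under 0.05 for 3 members and 791 genes, and the authors' deposited table likewise had 0 members called, against 0.483% of its genes higher and 1.66% lower (2.14% in all). Members had a median difference of -0.09, with 16 above 0, against 0.06 over all genes. The 3 members with the smallest p were Oas1a, Ifit3 and the double-stranded RNA kinase gene Eif2ak2. Oas1a read 4.09 and 4.36 RPKM in WT and 2.3 and 2.84 in c-Rel-deficient cells (log2 difference -0.63 ± 0.20, adjusted p = 0.503). Ifit3 read 1.76 and 2.19 RPKM in WT, and 6.67 and 2.73 in c-Rel-deficient libraries 1 and 2 (0.96 ± 0.38, adjusted p = 0.583). Eif2ak2 read 12.3 and 9.20 RPKM in WT, and 4.66 and 8.56 without c-Rel (-0.70 ± 0.29, adjusted p = 0.601). For all 3 the groups do not overlap, as for 8 of the 42 members above WT and 7 below, against 24.2% and 16.3% of all genes. For these 3 genes, picked by their p, c-Rel-deficient library 1 lies farther from WT than library 2. Whether this follows the Rel RNA of the libraries was not tested. Without the second c-Rel-deficient library, Ifit3 was the only member called (log2 difference 1.54, adjusted p = 0.0427), against 2.87% of all genes, in a fit where the lone c-Rel-deficient library is taken to vary like the other groups.

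The comparison of pentoxifylline with c-Rel loss has the same pentoxifylline libraries as the comparison above. Of 42 members, 14 were lower and 3 higher with pentoxifylline, against 26.8% and 21.6% of all genes. The 6 with the largest differences were Ly6a (-2.96), Irgm1 (-2.50), Ifit3 (-2.02), Gbp2 (-2.0), Bst2 (-1.88) and Rtp4 (-1.68). Ifit3 read 0.577 and 0.805 RPKM with pentoxifylline, below both c-Rel-deficient libraries given above, and Rtp4 read 5.30 and 9.37 RPKM in c-Rel-deficient cells. The 3 that were higher were Trim25 (0.87), Trafd1 (1.03) and Samd9l (1.26).

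In resting Tregs, nearly all members lay above WT when p65 was deleted, although no single member passed the test. Of the 49 members, 47 lay above 0 and the median difference was 0.49 on the log2 scale, a 1.41-fold difference, against -0.03 over all 10656 genes. Both p65KO libraries exceeded both WT libraries for 41 of 49 members, against 13.9% of all genes, and no member had both below, against 17.2%. The members were measured in the same 4 libraries and are not independent of each other. They were also chosen with earlier results of these data known. Here and below, the shares of all genes therefore give a scale and are not an independent test of the members. In limma 0 members and 0.00% of all genes were called, with unadjusted p under 0.05 for 19 members and 726 genes.

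Cmpk2, a mitochondrial nucleotide kinase gene next to Rsad2, read 6.5 and 6.4 RPKM in WT rTregs and 14.2 and 16.8 in p65KO rTregs. Ifit3b read 2.85 and 1.86 RPKM in WT and 6.82 and 8.75 in p65KO. Oas3 read 6.21 and 8.53 RPKM in WT and 15.6 and 18.9 in p65KO. In each case the p65KO libraries stand well above the WT libraries, and the log2 differences were 1.20 ± 0.17, 1.55 ± 0.23 and 1.18 ± 0.22 with adjusted p = 0.243, 0.261 and 0.522. In the authors' deposited table only 5 of 14818 genes (0.0337%) passed in this comparison, all 5 higher in p65KO, and 3 of them were members. They were Cmpk2 with a log2 fold change of 1.31 (adjusted p = 2.71e-05), Ifit3b with 1.76 (adjusted p = 0.000108) and Ifit3 with 1.38 (adjusted p = 0.0217).

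By role, the IFIT members had a median of 1.21 (range 0.22 to 1.55), the enzymes Cmpk2 and Rsad2 1.07, and the OAS family 1.04 (range 0.43 to 1.18). The sensors had 0.45, the GBP and IRG genes 0.43 with all 8 above 0 (range 0.27 to 0.68), and the transcription factors 0.37. The 2 members below 0 were Irf1, at 213 and 168 RPKM in WT and 170 and 165 in p65KO (-0.18), and Ifi35 (-0.10). Of the wider pathway list, 42 of 72 tested genes lay above 0 with a median of 0.03, and the receptor and kinase genes had a median of -0.08. The 39 other interferon-induced genes tested in that list had a median of 0.07, with 25 above 0 and 14 below.

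Within replicate numbers, 45 members were higher in number 1 (median 0.45) and 47 in number 2 (median 0.50). The 41 members with no overlap of libraries must be higher in each number, so this split is no separate support. Over 12 settings, which reuse the same libraries, the median stayed between 0.46 and 0.54. The summed RPKM of the 3 of 4 erythroid genes in the table was 0.0435 and 19 in WT and 30.6 and 36.6 in p65KO rTregs. That of the 5 plasmacytoid dendritic cell genes was 2.39 to 4.89 in WT and 2.19 to 4.06 in p65KO, and that of the 5 NK and cytotoxic genes 9.53 to 21.7 and 12.8 to 23.8. The 6 B cell genes summed to 15.3 to 19.3 in WT and 11 to 11.1 in p65KO. The erythroid and B cell sums do not overlap between the groups, and their part in the result was not tested.

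**Figure D3:**
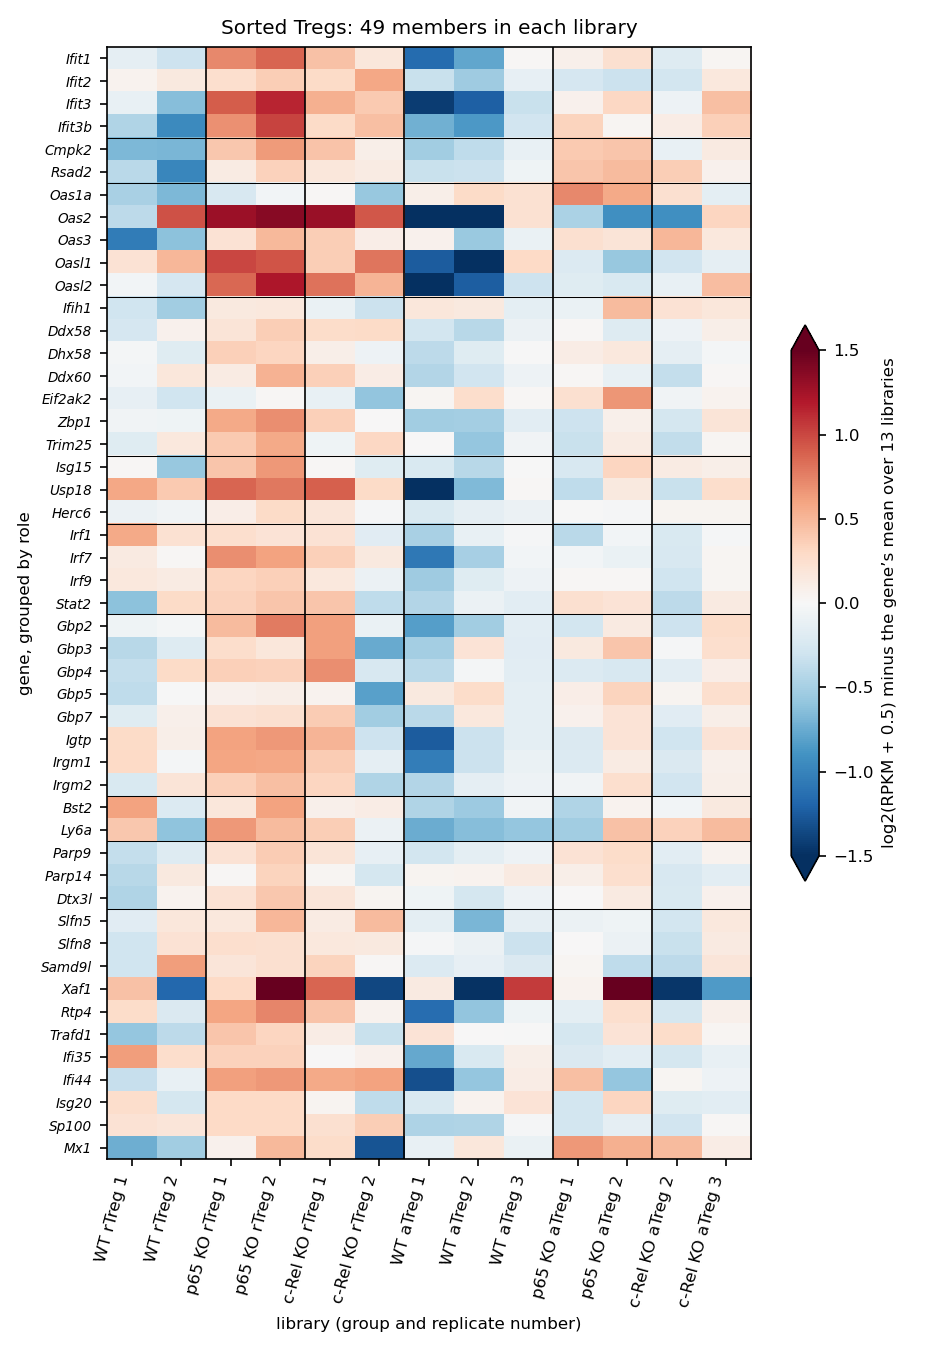
Log2(RPKM + 0.5) of the 49 members in each of the 13 sorted libraries, minus the gene's mean over these libraries, with red above and blue below the mean and colours ending at 1.5 in either direction. The 2 p65KO rTreg libraries have 47 and 48 members above the mean, and WT aTreg libraries 1 and 2 have 9 and 10.

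In resting Tregs without c-Rel the group differences of the IFIT and OAS members lay above 0 and the GTPases were divided, with no member past the test. The libraries of Oas1a, Oas2 and Oasl1 overlapped those of WT. Of 49 members, 38 lay above 0 with a median of 0.20, 0 were called in limma (0.00% of all genes), and unadjusted p was under 0.05 for 8 members and 775 genes. Both cRelKO libraries exceeded both WT libraries for 16 members and lay below for 2, against 12.3% and 14.2% of all genes. These differences are taken from the same WT libraries as those of p65KO. The 3 members with the smallest p were again of the effector roles. Cmpk2 read 14.5 and 11.3 RPKM in cRelKO (0.94 ± 0.17, adjusted p = 0.627), Oas3 17.4 and 14.3 (1.07 ± 0.22) and Ifit3b 5.07 and 5.72 (1.07 ± 0.23), each above the WT values given above. In the authors' deposited table Cmpk2 passed, with 1.04 and adjusted p = 0.00858, as 1 of 4 genes called (0.0270%).

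The IFIT members had a median of 0.68 and the OAS family 0.80, with all 9 above 0, while the 8 GBP and IRG genes had a median of -0.02 with 3 above 0. Of the 39 other interferon-induced genes tested in the wider pathway list, 15 lay above 0 and 24 below, with a median of -0.09. The 2 cRelKO rTreg libraries disagreed on the GTPases, with Igtp at 377 and 212 RPKM and Gbp3 at 78.1 and 29.9. In number 1, 42 of 49 members were higher than in WT (median 0.44), and in number 2, 26 of 49 (median 0.06). Foxp3 was also lower in the second library (28.1 against 73.6 RPKM), as was the Treg factor Ikzf2 (4.35 against 43.2 RPKM, with 41.2 and 47 in WT). The list of 6 Treg genes that holds both was not lower as a whole. It summed to 905 and 1258 RPKM in the cRelKO rTreg libraries, against 831 and 992 in WT. The 3 of 4 erythroid genes in the table summed to 23.5 and 75.1 RPKM in cRelKO rTregs against 0.0435 and 19 in WT. The part of these in the result was not tested. Compared directly, both p65KO rTreg libraries exceeded both cRelKO libraries for 27 members and lay below for 0, against 13.5% and 17.2% of all genes, with 0 called (0.00%) and p under 0.05 for 4 members and 215 genes. The numbers differed here too, with 30 of 49 members higher in p65KO in number 1 (median 0.04) and 47 in number 2 (median 0.53), and over 12 settings the median ran from 0.10 to 0.44. The smallest p belonged to Isg15, at 48.0 and 56.6 RPKM in p65KO against 36.1 and 31.4 in cRelKO (0.62 ± 0.23, adjusted p = 1.00), then Trafd1 (31.9 and 29.8 against 25.7 and 18.8) and Dhx58, a regulator of RIG-I-like receptors (22 and 21.4 against 18.2 and 16.1).

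**Figure D4:**
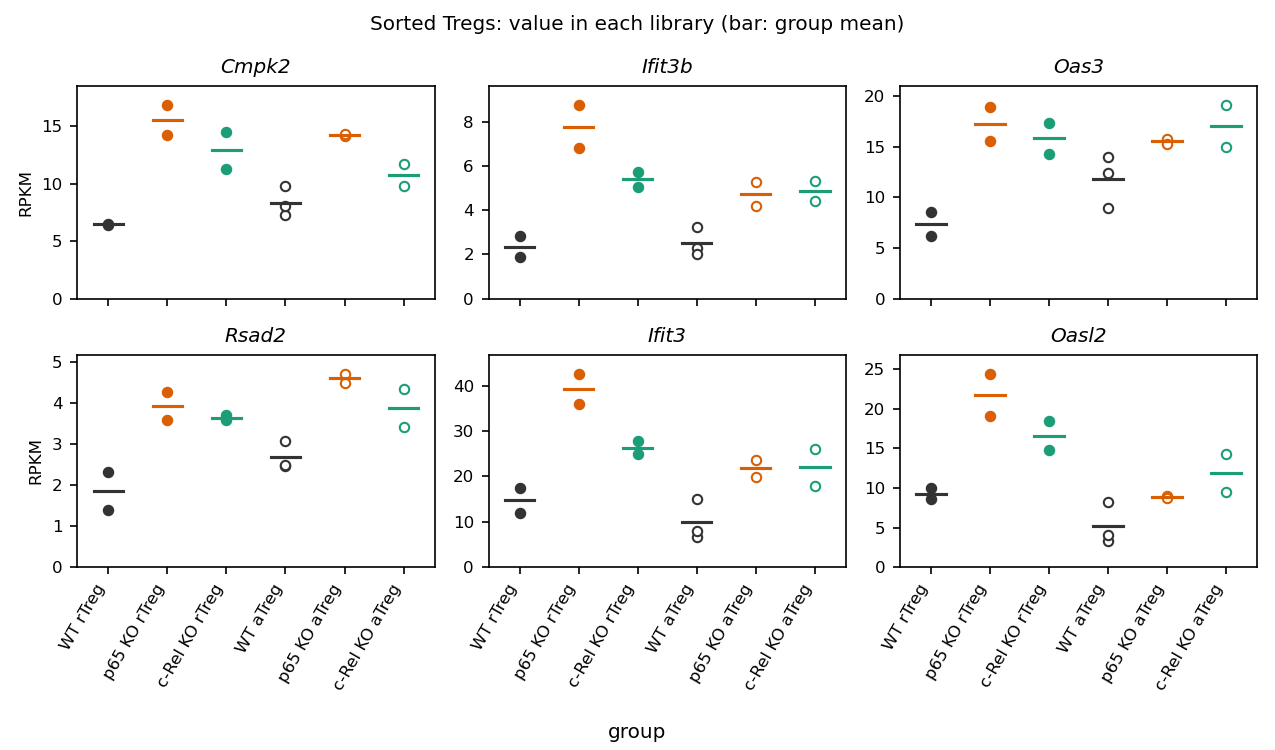
RPKM in each sorted library for 6 members chosen after their values were seen, with filled points for rTregs, open points for aTregs and bars for group means. In rTregs both deletions lie above WT for each gene, for example Cmpk2 at 14.2 and 16.8 (p65KO) and 14.5 and 11.3 (cRelKO) against 6.5 and 6.4.

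In activated Tregs without p65, 46 of 49 members lay above 0 with a median of 0.33 against -0.01 over all genes, and 0 were called in limma (0.00%), with p under 0.05 for 10 members and 365 genes. Both p65KO libraries exceeded all 3 WT libraries for 18 members and lay below for 0, against 9.89% and 11.7% of all genes. Cmpk2 read 7.23, 8.04 and 9.76 RPKM in WT aTregs and 14.1 and 14.3 in p65KO aTregs (0.74 ± 0.15, adjusted p = 0.998). Ifit3 read 6.73, 7.86 and 15.0 RPKM in WT and 19.9 and 23.6 in p65KO (1.18 ± 0.30), and Ifit3b 2.28, 2.02 and 3.23 against 5.26 and 4.17 (0.80 ± 0.21). The third WT library lies nearest to p65KO for all 3 genes. Without both libraries numbered 3, which leaves 2 libraries in each group, 35 members lay wholly above WT and 0 below, against 22% and 22.1% of all genes. In the authors' deposited table Ifit3, Ifit3b, Ifit1 and Cmpk2 passed, 4 of the 10 genes that were higher (0.0675%). The 39 other interferon-induced genes tested in the wider pathway list had a median of 0.14, with 32 above 0 and 7 below.

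The p65 comparisons in rTregs and aTregs share no library. Of the 41 members wholly above WT in rTregs and the 18 in aTregs, 17 were in both lists, 41.5% of the first and 94.4% of the second. Over all genes 312 were in both, 21.0% of 1483 and 29.6% of 1054. Since 41 of 49 members were in the rTreg list, most members of any aTreg list would fall in it. The overlap of members therefore cannot show agreement between the subsets, and its share cannot be set directly against that of all genes. The sorted values of all groups stand in 1 table whose adjustment is not described, so the libraries may not be independent in that respect. The test of the difference between subsets called 0 members and 0.00% of all genes (p under 0.05 for 3 members and 237 genes), with a member median of -0.16. Its smallest p was that of Trafd1, which read 15.7 and 17.9 RPKM in WT rTregs, 31.9 and 29.8 in p65KO rTregs, 27.4, 23.8 and 23.7 in WT aTregs and 19.7 and 27.5 in p65KO aTregs (interaction -0.96 ± 0.25, adjusted p = 0.998). Oas3 (-0.77) and Ifit3b (-0.74) followed.

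In activated Tregs without c-Rel, 44 of 49 members lay above 0 with a median of 0.27 against 0.01 over all genes, and 0 were called in limma (0.00%), with p under 0.05 for 7 members and 717 genes. Both cRelKO libraries exceeded all 3 WT libraries for 12 members and lay below for 1, against 11.8% and 13.8% of all genes. Ifit3b read 4.43 and 5.34 RPKM in cRelKO (0.85 ± 0.21, adjusted p = 0.300), Ifit3 17.9 and 26.1 (1.18 ± 0.30, adjusted p = 0.300), each above the WT values given above. Oasl2, an OAS relative with ubiquitin-like domains, read 3.30, 4.09 and 8.21 RPKM in WT and 9.48 and 14.3 in cRelKO (1.19 ± 0.31, adjusted p = 0.329). Again the third WT library is the one nearest to the deleted group. Ly6a followed by p, at 203, 219 and 228 RPKM in WT and 433 and 474 in cRelKO aTregs (1.07 ± 0.32, adjusted p = 0.437). Without both libraries numbered 3, which leaves 1 cRelKO library against 2 of WT, 28 members lay wholly above WT and 5 below, against 37.4% and 34.4% of all genes. In the authors' deposited table Oasl2 and Ifit3 passed, 2 of 59 genes that were higher (0.398%). Among the 39 other interferon-induced genes tested in the wider pathway list, 32 lay above 0 and 7 below, with a median of 0.16.

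Sums of some markers of other cells, those of plasmacytoid dendritic, dendritic and NK cells, were higher in both cRelKO aTreg libraries than in all 3 WT libraries, while the myeloid, B cell, CD8 T cell and plasma cell sums overlapped. The 5 plasmacytoid dendritic cell genes summed to 6.31 and 13.4 RPKM against 1.18 to 2.90 in WT aTregs, the 5 dendritic cell genes to 2.71 to 6.22 against 0.473 to 2.50, the 6 of 7 myeloid genes in the table to 4.65 to 11.1 against 2.01 to 4.72, and the 5 NK and cytotoxic genes to 18.3 to 51.7 against 2.98 to 13.1. The 6 B cell genes summed to 23.7 to 24.2 in cRelKO against 17.3 to 29.4 in WT, the CD8 T cell genes to 7.96 to 12.4 against 9.17 to 15.2, and the 4 of 5 plasma cell genes to 86.2 to 89.1 against 83.8 to 98.4. No marker of the first 4 lists was at 0 throughout either group. Their part in the result was not tested. In p65KO aTregs the first 4 lists summed to 1.28 to 2.89, 0.633 to 1.73, 1.43 to 2.01 and 3.86 to 9.23 RPKM.

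Compared directly in aTregs, p65KO lay above cRelKO for 27 of 49 members, with a median of 0.03 and 0 called (0.00% of all genes, p under 0.05 for 3 members and 634 genes). Both p65KO libraries exceeded both cRelKO libraries for 11 members and lay below for 3, against 17.0% and 19.7% of all genes. Within number 2, the 1 number both groups share, 39 of 49 members were higher in p65KO (median 0.26), and over 12 settings the median ran from -0.05 to 0.25. Oas1a read 24.2 and 21.7 RPKM in p65KO and 17.2 and 13 in cRelKO (0.60 ± 0.20, adjusted p = 0.593). Eif2ak2 read 16.4 and 22.2 against 13.4 and 14.4, and Cmpk2 14.1 and 14.3 against 9.83 and 11.7. The test of the difference between subsets for c-Rel called 0 members (0.00%, p under 0.05 for 1 member and 497 genes), with the smallest p for Cmpk2 (-0.58), Oas3 (-0.54) and Ly6a (0.82).

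**Figure D5:**
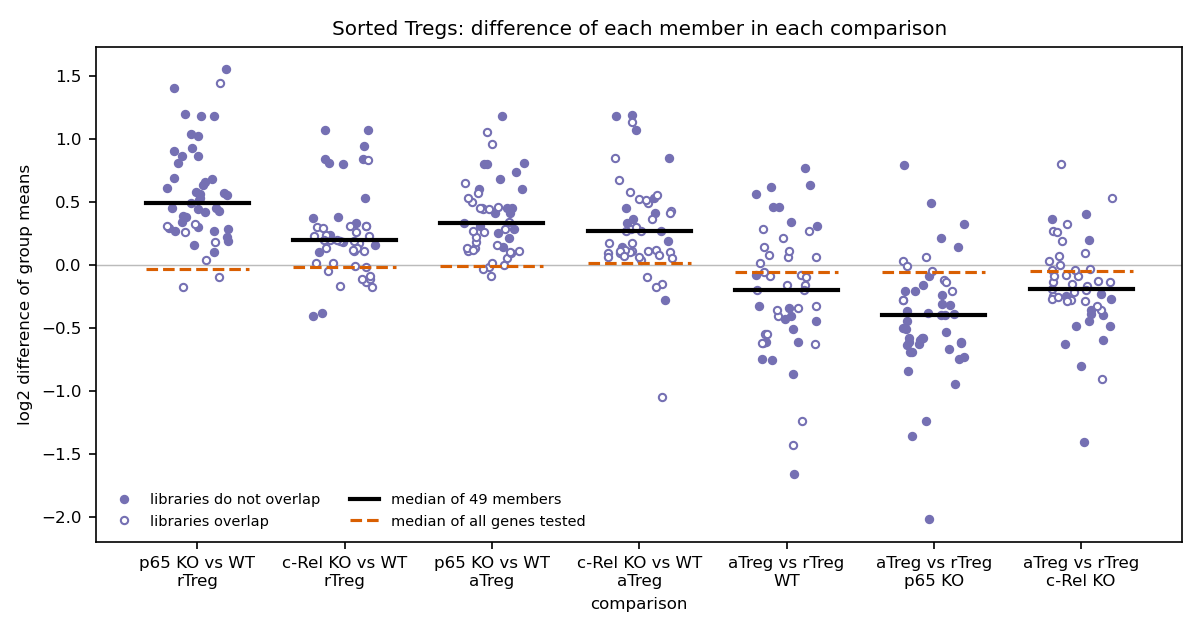
Log2 difference of each of the 49 members (points) in 7 comparisons of sorted cells, with the member median as a black line and the median of all 10656 genes as a dashed orange line, and filled points where the libraries of the groups do not overlap. Member medians are 0.49, 0.20, 0.33 and 0.27 for deletions against WT, and -0.20, -0.40 and -0.19 for aTregs against rTregs.

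Between subsets of WT cells, 32 of 49 members lay lower in activated than in resting Tregs and 17 higher, 34.7% of members above 0 against 43.5% of all genes. Both nucleotide enzymes (0.34 and 0.46) and all 3 PARP and DTX3L members (0.06 to 0.21) lay above 0, the 4 transcription factors below. In WT cells Oas1a was higher and Ifi35 lower in aTregs by the test, 1 and 1 of 49, against 7.54% and 4.68% of all genes. Oas1a read 10.2 and 8.90 RPKM in WT rTregs and 15.4, 17.7 and 17.0 in aTregs (0.77 ± 0.18, adjusted p = 0.0284). Ifi35 read 15.0 and 11.5 RPKM in rTregs and 5.39, 8.07 and 10.1 in aTregs (-0.75 ± 0.21, adjusted p = 0.0434). Neither gene's groups overlap. The median over 49 members was -0.20 against -0.06 over all genes, and 14 members lay wholly below and 8 wholly above rTregs, against 21.9% and 19.0% of all genes. Of the OAS genes, Oas1a and Oas3 lay above 0 and Oas2, Oasl1 and Oasl2 below, with a range from -1.43 to 0.77.

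This comparison depended on the third WT aTreg library. Without it 15 members were called, against 22.5% of all genes, among them Usp18 (-2.25), Oas2 (-2.11), Oasl1 (-1.83), Oasl2 (-1.23), Ifit3 (-0.95) and Irf7 (-0.86). Usp18, the ISG15 protease that also damps the type I receptor, read 67.6 and 59.2 RPKM in WT rTregs and 5.71, 28.2 and 45.6 in aTreg libraries 1 to 3, and Oas2 read 0.295, 0.463 and 3.14 RPKM in those libraries. With a single other library left out the count was 0 without rTreg library 1, aTreg library 1 or aTreg library 2, where 2.34%, 0.782% and 0.857% of all genes were called. It was 6 without rTreg library 2, where 27.8% of all genes were called. With the replicate number as a block 13 members were called, 12 of them lower, against 19.5% of all genes, and 32 and 33 of 49 members lay lower in aTregs within numbers 1 and 2 (medians -0.27 and -0.32). The authors' deposited table had 7 members lower (Oas2, Oasl1, Oasl2, Ifit3, Ifit2, Sp100 and Ifi35) and 1 higher (Oas1a), against 3.26% and 7.98% of its genes.

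In p65KO cells no member passed between subsets in limma, against 2.79% of all genes higher and 0.385% lower (3.17% in all), with p under 0.05 for 15 members and 2333 genes. The median was -0.40, 42 of 49 members lay below 0 (14.3% above, against 42.2% of all genes), and both aTreg libraries lay below both rTreg libraries for 36 members and above for 5, against 37.0% and 27.2% of all genes. Oas1a read 12.2 and 14.0 RPKM in rTregs and 24.2 and 21.7 in aTregs (0.79 ± 0.20, adjusted p = 0.0556), Oasl2 19.1 and 24.4 against 9.02 and 8.68 (-1.24 ± 0.33, adjusted p = 0.0724) and Zbp1 129 and 141 against 69.7 and 91.6 (-0.75 ± 0.20, adjusted p = 0.0724). With the spread estimated from these 4 libraries alone 13 members were called, 12 of them lower, against 13.6% of all genes, and without both libraries numbered 3, which belong to other groups, 9 were called against 8.03%. With the replicate number as a block 4 members were called, all lower, against 6.86% of all genes, and 41 of 49 members lay lower in aTregs within each number.

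In cRelKO cells 0 members were called (0.00% of all genes, p under 0.05 for 2 members and 1494 genes). The median was -0.19 and 36 of 49 members lay below 0 (26.5% above, against 40.5% of all genes). Members wholly below rTregs numbered 13 and wholly above 3, against 30.2% and 21.9% of all genes. Without both libraries numbered 3, which leaves 1 aTreg library against 2 of rTregs, these counts were 31 and 8, against 47.8% and 31.8%. With the replicate number as a block 4 members were called, all lower, against 8.46% of all genes, and within number 2 alone 31 of 49 members lay lower in aTregs (median -0.15). Ifit2 read 30.1 and 37.2 RPKM in cRelKO rTregs and 20.3 and 27.5 in aTregs (-0.49 ± 0.17, adjusted p = 0.249), Sp100, a nuclear body protein gene, 232 and 255 against 161 and 199, and Ifih1, which encodes the RNA sensor MDA5, 7.14 and 6.01 against 8.98 and 8.70.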

How the data were processed

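RNA was sequenced from 19 libraries in 9 groups. Per the submitters' processing notes, STAR, mm10 and DESeq2 1.10.1 were used. The authors deposited RPKM per library in 1 table per set, with the log2 fold change and p-value of each of the authors' comparisons, per the file headers. In the sorted set 2.53% of values lie below 0 (lowest -30.7), none of them a member's, so these RPKM were adjusted in a way not given in the sources used here. Values below 0 were set to 0. In 20 and 21 rows no library values are given. All per-sample columns were used, and no test ran across the 2 sets.

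After adding 0.5 and taking log2, genes that reached 1 RPKM in 2 or more libraries were fitted in limma 3.58.1 (R 4.3.3, statmod 1.5.0, eBayes with trend, group means, spread pooled over the groups of a set), two-sided, with Benjamini-Hochberg adjustment over all genes tested and a threshold of 0.05. Differences are on the log2(RPKM + 0.5) scale, which understates those of low genes. The deposited p-values were adjusted the same way. The fit was tested on simulated data. Python 3.11.15, pandas 2.3.3, numpy 2.4.6 and matplotlib 3.10.9 made tables and figures.

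Relative depth in stimulated libraries was read from the steps between low RPKM values. It was 1 and 0.949 with water, 0.915 and 0.853 without c-Rel, and 0.793 and 0.682 with pentoxifylline. The pentoxifylline libraries were thus the shallowest, and the part of depth in the values of low members was not tested. Depth is unknown in the sorted set. Between 9469 and 9751 genes reached 1 RPKM in stimulated and between 9765 and 10317 in sorted libraries.

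Members, role classes and marker and pathway lists were chosen with earlier results of these data known. Values per library were given for up to 6 called members with the largest differences, for the 3 with the smallest p where none was called, and for the 2 highest members, Irf7, Irf9 and Stat2. Some results are not reported here. Alternatives were other pseudocounts (0.1 and 1), filters, scaling, a replicate block, only the groups compared, and each library left out.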

Additional observations from a re-analysis of the deposited data

Results flagged for a closer look

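Trafd1 was the 1 member whose libraries separated in opposite directions in 2 genotypes. It was higher in aTregs than in rTregs of WT mice (log2 difference 0.56) and lower in p65KO mice (-0.40), with no overlap of libraries in either genotype. The gene was found by a search over all 49 members. Between subsets, 40.9% of all genes had no overlap in WT and 64.2% in p65KO. How many of all genes separated in opposite directions was not counted. The test of the difference gave -0.96 ± 0.25 (unadjusted p = 0.00338, adjusted p = 0.998 in limma over all genes), so it does not pass the correction. With pentoxifylline Trafd1 rose by 0.77 in stimulated cells.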

How the results depend on the processing

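Of 35 member differences past the threshold, 0 reversed under any alternative run, and 16 lost the threshold in at least 1 of them, mostly with a library left out (37 of 44 losses). In 8 comparisons 0 members were called in every setting. With libraries left out singly, the pentoxifylline count of 16 ranged from 7 to 22, the c-Rel count in stimulated cells from 0 to 1, and the WT subset count of 2 from 0 to 15. The WT subset count was 1 with no filter on low values (8.08% of all genes), 0 with only the groups compared (1.95%) and 14 without both libraries numbered 3 (20.7%). The p65KO subset count of 0 became 13 with only the groups compared (13.6% of all genes) and 9 without both libraries numbered 3 (8.03%). The setting without both libraries numbered 3, for counts of members with no overlap, was chosen after seeing the data. With fewer libraries more genes of any kind have no overlap, so shares of all genes follow. It gave 23 lower in the WT subset comparison (34.0% of all genes), 8 higher and 31 lower in cRelKO (31.8% and 47.8%), 35 higher for p65KO against WT aTregs (22%), 28 higher and 5 lower for cRelKO against WT aTregs (37.4% and 34.4%), and 31 higher and 5 lower for p65KO against cRelKO aTregs (33.4% and 30.8%). Median-of-ratios scaling gave 5 higher in the cRelKO subset comparison (23.6%). The cause of the other shifts was not tested.

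Same-numbered libraries shared deviations with r = 0.40 for water and pentoxifylline and between -0.49 and 0.44 over the sorted groups. With 2 pairs at most in a comparison, the main fit did not take the numbers as pairs. The second water and pentoxifylline libraries also share Xist RNA, so these 2 groups may be paired by number. With the replicate block 18 members were called with pentoxifylline, 16 of them lower, against 46.2% of all genes. The deposited sorted values do follow the numbers: 545 genes have 1 identical value other than 0 in all 3 rTreg libraries numbered 1, 434 in all 3 numbered 2, and for 145 both hold with different values. The labels describe no such adjustment, and after one a low correlation does not show that the numbers are unrelated. With the replicate block, the WT subset count was 13, the p65KO and cRelKO subset counts were 4 each, and no other count moved by over 1.5 times. In stimulated cells 5 of 47 members stayed below the level for testing.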
